A study of Mus musculus with 25 samples.

Results

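The phagocyte NADPH oxidase was followed through the transcripts of 5 of its subunits, Cybb, Cyba, Ncf1, Ncf4 and Rac2, in microglia sorted from the brains of mice that lack Bin1 in forebrain neurons. The 5 genes were chosen by symbol from the 43411 genes of the expression table, and all 5 were among the 12908 genes with enough counts to be tested. Microglia were taken as CD11b+ cells with intermediate CD45 from mice of 3 months of age, and the RNA of each mouse was sequenced separately. Homozygous Bin1-cKO mice (Homo, n = 10, 5 females and 5 males) were Bin1flox/flox Thy1-Cre+, heterozygous mice (Het, n = 7, 4 females and 3 males) were Bin1flox/wt Thy1-Cre+, and WT controls (n = 6, 2 females and 4 males) were Bin1flox/wt Thy1-Cre-. The controls therefore also carried 1 floxed allele, and the Thy1 promoter drives Cre in excitatory neurons of the forebrain, so the sorted microglia were not the cells targeted. The questions put to the 5 genes were whether their levels in microglia differed by genotype, by sex, and between the animal-number ranges in the labels.

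The NADPH oxidase of phagocytes moves electrons from NADPH inside the cell across a membrane to oxygen, which yields superoxide. Its catalytic core, gp91phox (NOX2, the product of Cybb), is held in the membrane with p22phox (Cyba) as flavocytochrome b558. In a resting cell other subunits, among them p47phox (Ncf1) and p40phox (Ncf4), wait in the cytosol together with a small Rac GTPase, and they join the membrane core when the cell is stimulated. In microglia the enzyme is known as a main source of superoxide during phagocytosis and inflammatory activation.

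The libraries held between 10812969 and 16734846 counts, with a median of 13477985, and the 3 groups overlapped in depth. All 14 microglial markers were detected, with summed levels between 64450 and 103100 CPM (counts per 1000000 counts of a library) over the 23 mice, so the sorted cells matched their label. Neuronal markers were low throughout and lower in the homozygous mice, at summed levels of 6.23 to 10.9 CPM against 15.5 to 42.8 CPM in WT mice. Fos, an immediate-early gene, stood at 824.5 to 1459 CPM in 4 homozygous mice (females 1 and 2, males 1 and 2) and at or below 6.999 CPM in the other 19. All 4 of those mice had animal numbers in the 03xx range. Because every WT and heterozygous mouse had a number in the 02xx range and every homozygous mouse one in the 03xx or 04xx range, genotype and number range cannot be told apart, and the labels do not say what the ranges stand for.

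Measured per length, the 5 subunit transcripts spanned a wide range of levels. Cyba led with 591 ± 49.6 CPM per kilobase of exon (SD, n = 23 mice), which placed it above 99.6% of the genes tested. Ncf1 followed at 161 ± 13.1 CPM per kilobase, above 98.2% of the genes. Ncf1 is the organizer that carries the cytosolic complex to the membrane. Rac2 stood at 59.2 ± 4.85 CPM per kilobase, and Ncf4, the phosphoinositide-binding subunit, at 56.3 ± 6.93. These last levels were neighbours that could not be separated, since Rac2 exceeded Ncf4 in 15 of 23 mice only. Cybb, the catalytic subunit, came last at 1.11 ± 0.555 CPM per kilobase, above 21.4% of the genes tested.

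**Figure D1:**
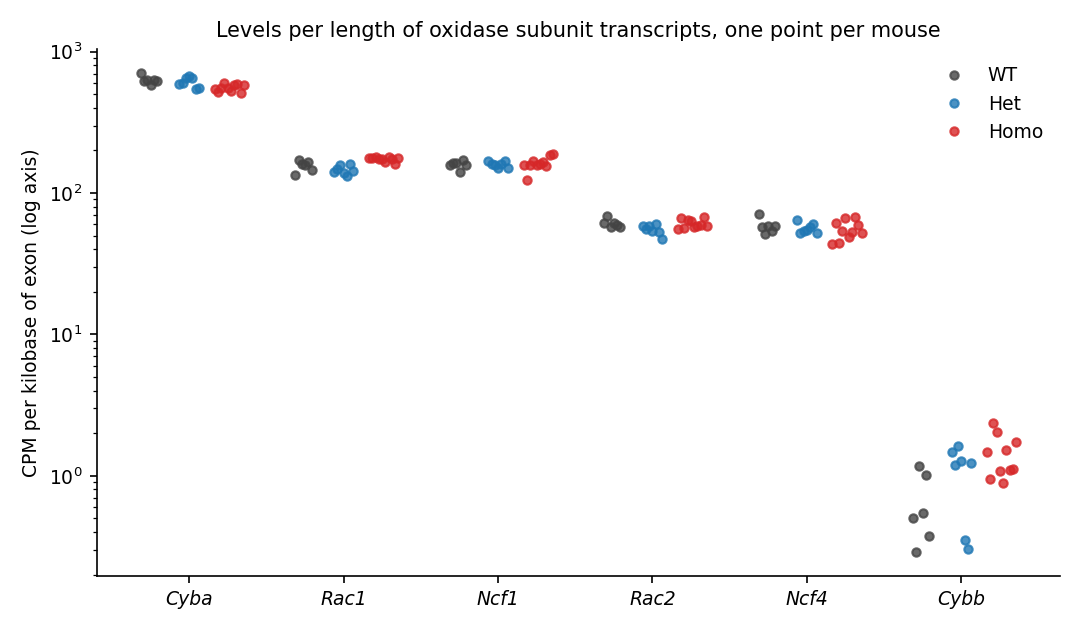
Level of each oxidase subunit transcript in CPM per kilobase of exon (log axis), each point a mouse and each colour a genotype. Cyba lies above all other genes and Cybb far below them in all 3 genotypes, while Rac1 and Ncf1, and likewise Rac2 and Ncf4, overlap.

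The membrane partners were thus listed at very unequal levels. Per kilobase, Cyba exceeded Cybb in all 23 mice, by 232.3 to 2130 times with a median of 529.7. Ncf4, the next gene above Cybb in the order, exceeded it by 18.7 to 201.4 times. The length of the longest transcript in place of the exon union gave the same order of the 5 except between Rac2 and Ncf4, at 60.5 CPM per kilobase for Rac2 and 77.7 for Ncf4. Only 0.396% of the 25-base sequences in Cybb exons occur in another gene, so shared sequence takes up little of this gene. By contrast 9.41% of Cyba, 11.6% of Ncf1, 5.07% of Rac2 and 0% of Ncf4 sequences were shared. The marker genes Mrc1, Ier5 and Btg2 were listed at 0 in every mouse. Whether the low Cybb values come from the cells or from the counting cannot be told from these counts.

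Cybb (X:9435252-9487771, minus strand, GRCm38) was the most variable of the 5 genes and the one with the largest difference between homozygous and WT mice. In WT mice it ranged from 1.69 to 6.82 CPM with a median of 3.05, and in heterozygous mice from 1.75 to 9.43 CPM with a median of 7.10. In homozygous mice it ranged from 5.15 to 13.7 CPM with a median of 7.55. All 10 homozygous mice lay above the WT median, 5 lay above the highest WT mouse, and the groups overlapped. Of the 7 heterozygous mice, 5 lay above the highest WT mouse as well. The values rest on 22 to 196 counts per mouse. The log2 fold change of homozygous over WT mice was 1.03 ± 0.354 (SE), a 2.05-fold difference with a 95% confidence interval of 1.24 to 3.39.

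With a quasi-likelihood test in edgeR and p-values adjusted over all genes by Benjamini-Hochberg, this difference did not pass the threshold of 0.05 (p = 0.0072, adjusted p = 0.054), and it lay close enough to it that other settings decided the call. DESeq2 with sex in the design gave an adjusted p of 0.0185 and limma-voom one of 0.0196, whereas homozygous mice of the 03xx range alone gave 0.127 and those of the 04xx range alone 0.143 by edgeR. Leaving out each mouse in turn gave edgeR-adjusted p-values from 0.0273 to 0.153. They fell below the threshold without WT male 1 (log2 fold change 1.30, adjusted p = 0.0273), WT male 3 (1.21, 0.0406), heterozygous male 1 (1.07, 0.0350), heterozygous male 3 (1.07, 0.0340) or homozygous female 2 (1.08, 0.0495). The edgeR adjusted p was 0.0786 (log2 fold change 1.15) for the 6 homozygous mice with Fos below 100 CPM. Heterozygous mice lay between the other groups, with a log2 fold change of 0.55 over WT mice (95% confidence interval -0.25 to 1.36, adjusted p = 0.77), and homozygous mice exceeded heterozygous mice by 0.48 (-0.18 to 1.14, adjusted p = 0.29).

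Cybb is also made by neutrophils, monocytes and macrophages of the brain borders, and markers of those cells were read in the same libraries. The 8 monocyte markers summed to 7.28 to 14.4 CPM in WT, 6.69 to 15.5 in heterozygous and 12.4 to 28.0 in homozygous mice, with 5 of the 8 below 1 CPM on average. Of the 4 monocyte markers tested, 1 was called higher, where 12.7% of all genes tested passed. It was Ccr2, a chemokine receptor, at 2.43-fold (95% confidence interval 1.76 to 3.37, edgeR adjusted p = 0.00081). Plac8, Ms4a4c and Chil3 were not called, with log2 fold changes of -0.171, 0.129 and 1.942 (edgeR adjusted p = 0.81, 0.85 and 0.33). Ccr2 alone stood at 7.85 to 20.25 CPM in homozygous and 3.68 to 5.70 CPM in WT mice. The 11 neutrophil markers in the table summed to 2.64 to 48.7 CPM in WT, 4.25 to 62.3 in heterozygous and 2.34 to 102.8 in homozygous mice, and none of the 7 tested passed. Among them Mpo, Elane, Retnlg, Mmp8 and Lcn2 were below 1 CPM on average. Border macrophage markers summed to 7.24 to 35.3 CPM in WT, 15.1 to 63.1 CPM in heterozygous and 6.12 to 39.7 CPM in homozygous mice, with none of the 7 tested called and with Mrc1 listed at 0 in every library. The 9 lymphocyte markers summed to at most 0.630 CPM. The part of these cells in the Cybb values was not tested, and in sorted cells sequenced in bulk, more cells of a type and more RNA per cell cannot be told apart.

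Cyba (8:122424776-122432930, minus strand) fell in homozygous mice. Its level ran from 604.3 to 731.7 CPM in WT mice with a median of 647.6, from 562.6 to 695.0 in heterozygous mice with a median of 625.7, and from 533.4 to 618.8 in homozygous mice with a median of 573.9. All 10 homozygous mice lay below the WT median and 8 lay below the lowest WT mouse. The remaining 2 overlapped with the WT range. The level fell by 12.3% relative to WT mice, a log2 fold change of -0.19 ± 0.0558 (SE, edgeR adjusted p = 0.027), and the fold of 0.877 (95% confidence interval 0.810 to 0.950) was smaller than the 1.5-fold limit that defined differentially expressed genes (DEGs).

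**Figure D2:**
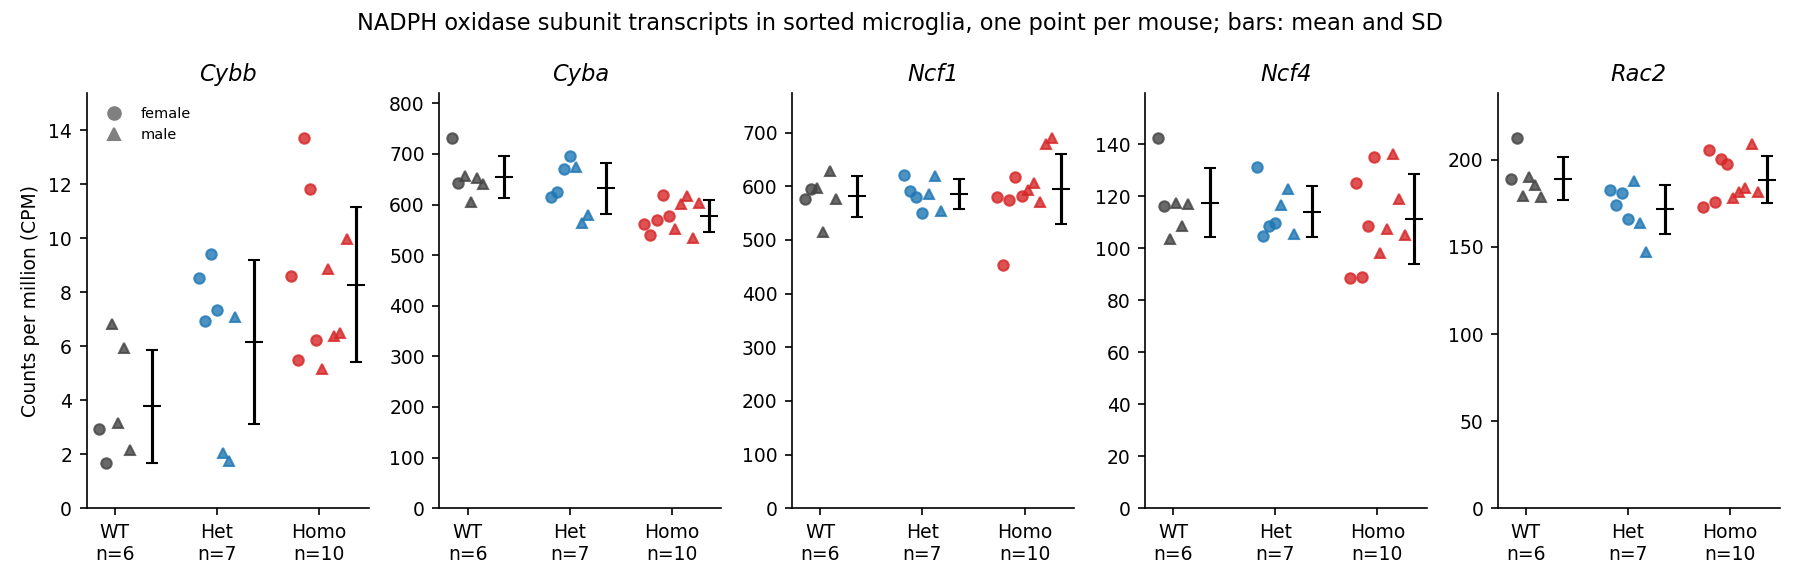
Level of the 5 subunit transcripts in CPM, each point a mouse (circles, females; triangles, males), with the mean and SD of each genotype beside the points. Homozygous mice lie low for Cyba, between 533.4 and 618.8 CPM, and high for Cybb, between 5.15 and 13.7 CPM, and the genotypes overlap for all 5 genes.

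The call on Cyba depended on WT female 1, the highest of all mice at 731.7 CPM, without which the adjusted p was 0.0901, and on WT male 1, without which it was 0.0540. With library totals in place of scaling factors the difference was -0.09 (adjusted p = 0.257), but the median of all genes moved to 0.11 there, and relative to that median Cyba lay at -0.20. For the 6 homozygous mice with Fos below 100 CPM the log2 fold change was -0.17 (adjusted p = 0.113). Neuronal markers moved in the same direction as Cyba. Of 8 tested, 4 were called lower and 0 higher, where 7.09% of all genes tested were called lower. The 4 were Snap25, a synaptic vesicle fusion protein, at 0.174-fold, Nrgn at 0.148-fold, Nefl at 0.149-fold and Gad1 at 0.114-fold. Of 10 markers of other glia and vessels tested, 5 were called lower and 0 higher, with 9 log2 fold changes below 0 and 1 above. Those called were Pecam1 at 0.711-fold and Mbp at 0.679-fold, and 3 named after their values were seen. These were Aldoc at 0.327-fold, Pdgfrb at 0.211-fold and Mobp at 0.310-fold. Of 14 microglial markers, 7 were called lower and 0 higher, against the same 7.09% of all genes. Their log2 fold changes were below 0 for 12 and above 0 for 2, with a median of -0.225. Summed levels of the 14 markers ran from 64450 to 74880 CPM in homozygous against 73050 to 103100 CPM in WT mice. Among them Cx3cr1, the fractalkine receptor, fell to 0.701-fold, Tmem119, a microglial surface protein, to 0.740-fold and Csf1r, the receptor that sustains microglia, to 0.708-fold. The part of these lists in the Cyba result was not tested. Against heterozygous mice, Cyba was lower by 0.126 on the log2 scale (95% confidence interval of the change -0.24 to -0.02, adjusted p = 0.090), and heterozygous and WT mice differed by -0.06 (-0.19 to 0.06, adjusted p = 0.84).

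Among the genes tested, 12.7% passed the adjusted threshold between homozygous and WT mice, 7.09% passed it with a lower level, and 3.40% were DEGs. Of the 5 subunits, 1 (Cyba) passed, with a lower level, and 0 were DEGs. None of the 5 separated all homozygous from all WT mice, which 1.81% of the genes tested did. Between homozygous and heterozygous mice, 22.7% of the genes passed and none of the 5 subunits did. Between heterozygous and WT mice, the edgeR test called 0% of the genes and none of the subunits, with 998 genes at an unadjusted p under 0.05. DESeq2 with sex in the design called 3 genes there and limma-voom 0.

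The balance between the membrane subunits was measured within each mouse as the log2 ratio of Cybb to Cyba in CPM. In homozygous mice the ratio was -6.20 ± 0.447 (SD, n = 10) and ranged from -6.74 to -5.38. In WT mice it was -7.62 ± 0.793 (SD, n = 6) and ranged from -8.57 to -6.59, and heterozygous mice lay between them at -6.92 ± 0.988 (SD, n = 7), from -8.37 to -6.15. The mean of homozygous mice was higher by 1.42 on the log2 scale (exact permutation test, two-sided, p = 0.0010 from 8008 divisions of the mice). That test does not take sex into account, and its p is not adjusted over genes as the edgeR values are.

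**Figure D3:**
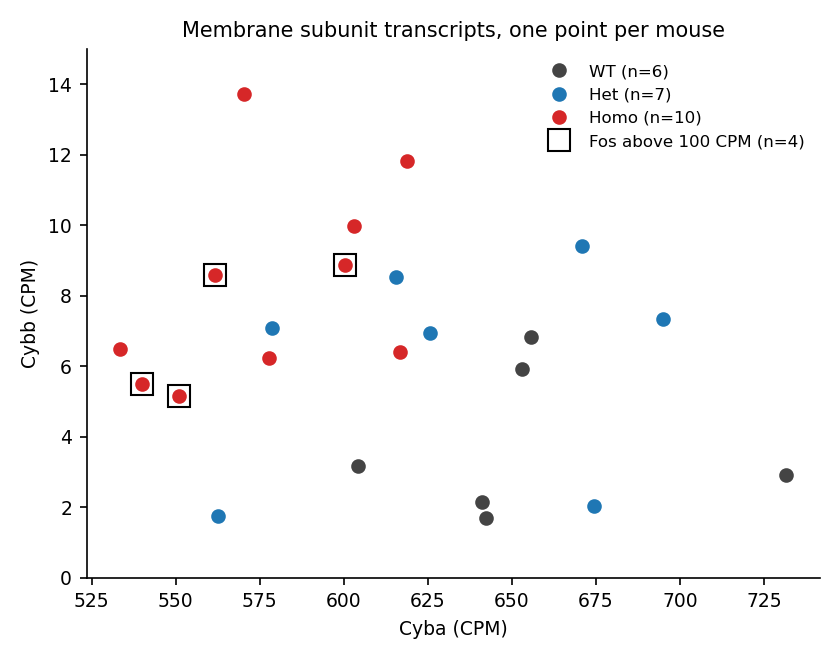
Cybb against Cyba in CPM, each point a mouse, coloured by genotype, with squares around the 4 homozygous mice with Fos above 100 CPM. Homozygous mice sit in the upper left, with Cyba at or below 618.8 CPM and Cybb at or above 5.15 CPM, and those with high Fos lie among the others. Heterozygous female 1 (Cyba 615.6, Cybb 8.54 CPM) and heterozygous male 4 (578.6, 7.10 CPM) also lie within these limits.

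The difference was also taken within parts of the data. It was higher by 1.38 for homozygous mice of the 03xx range alone (exact permutation p = 0.0087) and by 1.49 for those of the 04xx range alone (exact permutation p = 0.0095). The second p is the smallest that 4 homozygous and 6 WT mice allow, and both ranges were set against the same 6 WT mice. Among males it was higher by 0.95 (n = 5 and 4, exact permutation p = 0.048). Among females it was higher by 2.22 (n = 5 and 2, exact permutation p = 0.095), and that p is the smallest that this number of females allows. Because Cybb varied far more than Cyba from mouse to mouse, with coefficients of variation of 49.9% and 8.40% over all mice, the ratio follows mainly Cybb.

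Ncf1 and Ncf4, which encode cytosolic subunits, did not pass the test in any comparison of genotypes. Ncf1 (5:134220053-134229625, minus strand) ranged from 513.9 to 628.4 CPM in WT mice with a median of 586.1, from 551.0 to 620.9 in heterozygous mice with a median of 585.1, and from 454.1 to 690.0 in homozygous mice with a median of 586.8. The homozygous mice enclosed both other groups, with both the lowest and the highest mouse among them. Their fold over WT mice was 1.03 (95% confidence interval 0.935 to 1.13, edgeR adjusted p = 0.74). Of the exon bases of Ncf1, 408 lie in exons of Gtf2ird2 on the opposite strand, a gene with a mean of 409.61 counts, and with a kit that does not mark strand the reads of that stretch cannot be assigned.

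Ncf4 (15:78244801-78262580, plus strand) ranged from 103.7 to 142.4 CPM in WT mice with a median of 116.6. In heterozygous mice it ranged from 104.6 to 131.1 CPM (median 109.8), and in homozygous mice from 88.5 to 136.1 CPM (median 107.9). The groups overlapped over most of their ranges, although 3 homozygous mice lay below every other mouse. The fold of homozygous over WT mice was 0.944 (95% confidence interval 0.827 to 1.08, adjusted p = 0.62).

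Rac2 (15:78559167-78572783, minus strand), which lies 296.6 kb from Ncf4, encodes the Rac GTPase of blood cells. WT mice ranged from 178.5 to 212.6 CPM with a median of 187.5, homozygous mice from 173.2 to 209.4 with a median of 182.6, and heterozygous mice from 146.9 to 187.6 with a median of 174.0. Of the 7 heterozygous mice, 4 lay below every WT mouse. Homozygous and WT mice had a fold of 0.990 (95% confidence interval 0.909 to 1.08, adjusted p = 0.91). The folds of heterozygous over WT mice, 0.897 (0.818 to 0.984, adjusted p = 0.58), and of homozygous over heterozygous mice, 1.10 (1.02 to 1.20, adjusted p = 0.072), did not pass. The second of these was called by DESeq2 with sex in the design (log2 fold change 0.14, adjusted p = 0.0434), with library totals in place of scaling factors (0.21, adjusted p = 0.0176), and without heterozygous male 1, homozygous female 1 or homozygous female 3 by edgeR, at a log2 fold change of 0.18, 0.16 and 0.16.

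**Figure D4:**
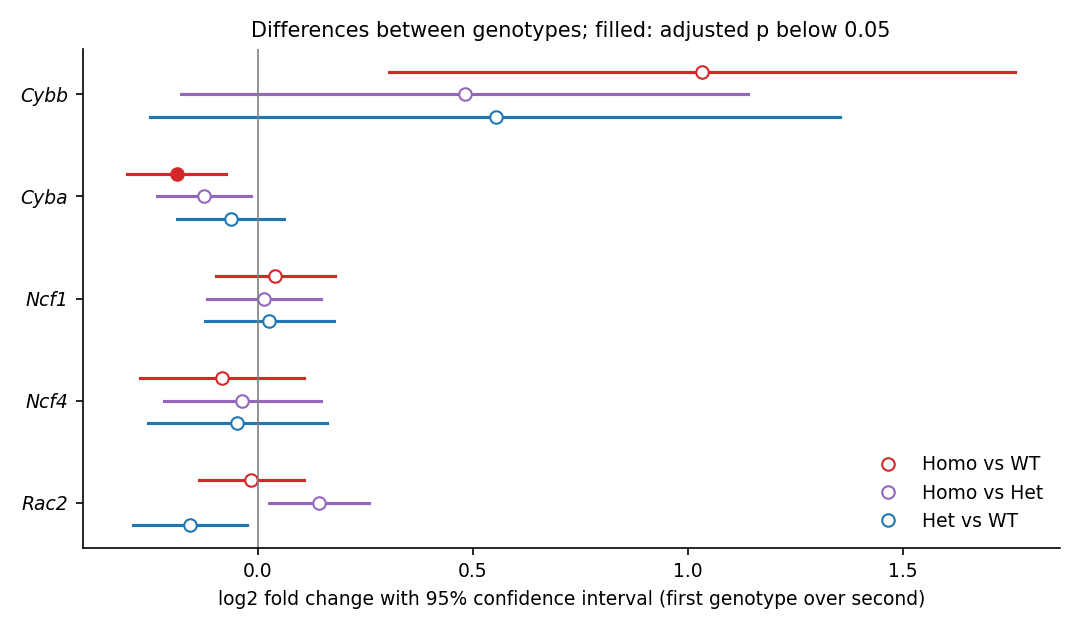
Log2 fold change of the 5 subunits with its 95% confidence interval in the 3 comparisons of genotypes, filled where the edgeR adjusted p was below 0.05. Only Cyba between homozygous and WT mice is filled, and the intervals of Cybb are the widest.

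Other parts of the same enzyme were read from a list of 16 further subunits, homologs and assembly factors, of which 8 could be tested. Rap1b, a close relative of Rap1a, the small GTPase found with flavocytochrome b558, rose 1.23-fold in homozygous over WT mice (95% confidence interval 1.13 to 1.34, adjusted p = 0.0024). Cybc1, a chaperone needed for stable gp91phox and p22phox proteins, fell to 0.772-fold (0.679 to 0.877, adjusted p = 0.0074). The list thus had 1 gene higher and 1 lower, with a median log2 fold change of 0.08 against 0.01 for all genes tested. Of all 12908 genes tested, 12.7% passed, 730 of them higher and 915 lower. Rac1, the ubiquitous Rac GTPase, had a fold of 1.11 (1.02 to 1.21, adjusted p = 0.080) over WT mice and a log2 fold change of 0.26 over heterozygous mice (adjusted p = 0.0018), with the limit that 52.1% of its sequences are shared, mostly with Daglb on the opposite strand.

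Homologs of the catalytic subunit were near the limit of detection. Nox1, the colonic homolog of the catalytic subunit, had 21 counts over all mice and was at 0 in 13 of them. Nox4, the homolog found in kidney and vessels, had 63 counts in all and at most 9 in any mouse. Neither passed the filter on low counts.

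Of 38 genes that act on the oxidase from upstream, 35 were tested, 2 rose and 5 fell, where 12.7% of all genes tested passed. The median log2 fold change was -0.03 against 0.01 for all genes. Itgam, the alpha chain of complement receptor 3, fell to 0.657-fold (95% confidence interval 0.564 to 0.765, adjusted p = 0.00079). Trem2, a microglial lipid receptor, fell to 0.718-fold, and Clcn3, a chloride-proton exchanger, to 0.752-fold. Arhgdia, which holds Rac in the cytosol, rose 1.14-fold. The remaining calls, Arhgap15, a Rac GTPase-activating protein (2.38-fold higher), Vav1, a Rac exchange factor (0.843-fold), and Itgb2, the partner of Itgam (0.809-fold), lie outside the rule for naming genes and were chosen after their values were seen.

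**Figure D5:**
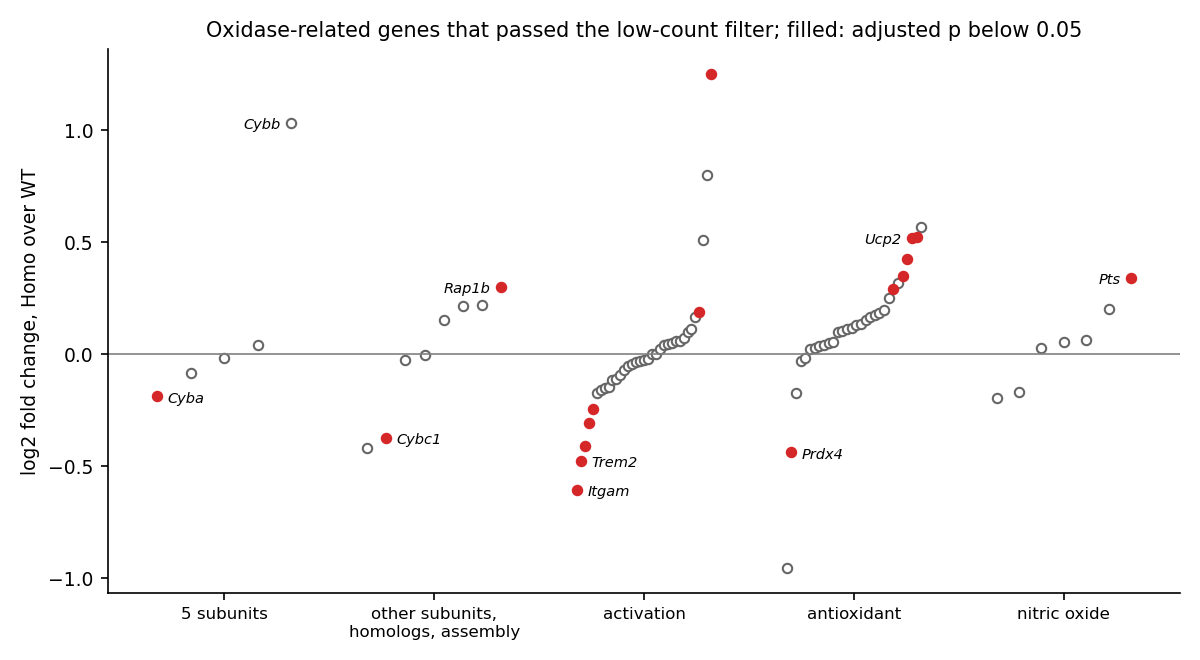
Log2 fold change of homozygous over WT mice for the genes of 5 lists that passed the low-count filter, each point a gene, sorted within its list, filled where the edgeR adjusted p was below 0.05. Among the 5 subunits Cyba is filled at -0.19 and Cybb is open at 1.03; Itgam and Trem2 are the lowest filled points of the activation list.

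Genes of antioxidant defence formed a list of 35, of which 30 were tested. The list holds enzymes that remove superoxide and peroxide, and also the enzymes, carriers and regulators that supply glutathione, thioredoxin and NADPH. Of these 5 rose and 1 fell, with 25 of 30 log2 fold changes above 0 and a median of 0.12 against 0.01 for all genes. Over all 12908 genes tested, 730 rose and 915 fell. Ucp2, a mitochondrial carrier, rose 1.43-fold (95% confidence interval 1.28 to 1.61, adjusted p = 0.00029), Gsr, glutathione reductase, rose 1.34-fold, and Gsto1, a glutathione transferase, 1.44-fold. Prdx4, the peroxiredoxin of the endoplasmic reticulum, fell to 0.738-fold. Txn1 and Gclc also rose, by 0.35 and 0.29 on the log2 scale, and were named after their values were seen. Of 16 genes of nitric oxide metabolism 7 were tested, and Pts, an enzyme of tetrahydrobiopterin synthesis, rose 1.27-fold (1.10 to 1.46, adjusted p = 0.026), while Nos2 was listed at 0 in all mice.

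Of 19 transcription factors known to act on oxidase genes 16 were tested, 4 rose and 1 fell, against 730 and 915 of all 12908 genes tested. Fos rose with a log2 fold change of 8.75 (adjusted p = 0.0030) that rested on 4 mice, and Jun rose by 3.23 (adjusted p = 0.0040). Fos and Jun belong to a list of immediate-early genes of which 16 of 22 tested rose and 0 fell. Among them were Egr1, Ier2, Egr2 and Atf3, with log2 fold changes of 7.02, 4.45, 1.96 and 0.94. Summed over the list, the same 4 mice stood at 11010 to 16130 CPM. The other 6 homozygous mice stood at 1606 to 2152 CPM, against 1473 to 1716 CPM in WT mice. Runx1 rose 1.23-fold, Elf1 rose 1.18-fold and Crebbp, a coactivator, fell to 0.834-fold. Spi1 (PU.1) and Irf8, the factors best known for driving Cybb in myeloid cells, had log2 fold changes of 0.02 (adjusted p = 0.85) and 0.05 (adjusted p = 0.51). Over heterozygous mice, Irf8 was called higher in homozygous mice (0.19, adjusted p = 0.0026) and Spi1 was not called (0.095, adjusted p = 0.19). Both genes lie outside the rule for naming genes, and their part in the Cybb values was not tested.

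Because Cybb lies on the X chromosome, the subunits were compared between the sexes. The test of males against females over all genotypes called 0.0852% of the genes and none of the 5 subunits, and Cybb differed by -0.31 on the log2 scale (95% confidence interval -0.90 to 0.28, adjusted p = 0.93). Within heterozygous mice the 4 females ranged from 6.94 to 9.43 CPM of Cybb, while the 3 males stood at 1.75, 2.05 and 7.10 CPM. Within WT mice the females stood at 1.69 and 2.93 CPM and the 4 males ranged from 2.17 to 6.82. The medians of the sexes thus lay in opposite order in these 2 genotypes, while females and males overlapped in both. Those of females and males were 7.94 and 2.05 CPM in heterozygous and 2.31 and 4.55 CPM in WT mice. The log2 fold change of homozygous over WT mice was 1.99 in females (adjusted p = 0.087) and 0.71 in males (adjusted p = 0.31). The test of that difference gave an unadjusted p of 0.055 and an adjusted p of 0.96, and it called 0% of all genes, with 644 at an unadjusted p under 0.05.

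The homozygous mice were also compared by number range, 4 mice of the 04xx range against 6 of the 03xx range. The test called 0.442% of the genes and none of the subunits. Ncf1 was 1.14-fold higher in the 04xx range (95% confidence interval 1.02 to 1.27, p = 0.019, adjusted p = 0.36), with mice from 581.2 to 690.0 CPM against 454.1 to 605.6 CPM. Cybb, at 6.24 to 11.8 CPM against 5.15 to 13.7, and Cyba, at 533.4 to 618.8 against 539.9 to 616.6, overlapped almost entirely. The 4 mice with Fos above 100 CPM, all in the 03xx range, had 5.15, 5.50, 8.59 and 8.87 CPM of Cybb.

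Beyond genotype and sex, Pearson correlations between subunits ran from -0.43 to 0.50. The biological coefficient of variation that edgeR assigned was 43.5% for Cybb, 12.9% for Ncf4, 10.2% for Ncf1, 8.93% for Cyba and 8.83% for Rac2. On residuals of log2 CPM after genotype and sex, described over 23 mice that share the same libraries and scaling, the highest correlation between subunits was that of Ncf4 with Rac2 (Pearson r = 0.50, Spearman rho = 0.57). The lowest was that of Cybb with Ncf4 (r = -0.43, rho = -0.55), and that of Cybb with its membrane partner Cyba was 0.21. All were weaker than the correlation of each subunit with its nearest gene. That gene is the highest of 7396 or 7397, so this comparison tests nothing.

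Over the same 23 mice, the genes nearest to Cyba were Ltbr (r = 0.81), Yif1b (0.75) and Nme3 (0.70). Those nearest to Ncf1 were Wars (0.83), Ddb1 (0.78) and Rftn1 (0.74), and those nearest to Rac2 were Phb2 (0.77), Rpl29 (0.76) and Map2k3 (0.72). Cybb had Mesd (0.75), Slc24a3 (0.74) and Tmem189 (0.71), and Ncf4 had Gps2 (0.73), Alad (0.71) and Parp2 (0.69). No subunit was among the 3 nearest genes of another. Cybb could not be, because its mean log2 CPM of 2.52 was below the limit of 4. These are the highest of 7396 correlations per subunit (7397 for Cybb), and with Spearman's rho 8 of the 15 genes stayed among the 3 nearest.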

How the data were processed

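RNA of sorted microglia from 23 mice had been made into cDNA with a SMARTer Ultra Low kit and a Nextera XT library, which do not mark strand, and sequenced as single reads. The authors aligned reads to mm10 with the OmicSoft aligner and deposited expected counts per Ensembl gene, estimated with RSEM; the values are not normalized. 2 of the 25 labelled mice have no column and are not analysed here. Expected counts were rounded to whole numbers (82.2% already were whole). Of 43411 genes, 42929 matched the GRCm38 annotation, from which symbols, coordinates and exon lengths were taken.

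Genes with low counts were removed with filterByExpr and libraries scaled by TMM. Genotypes were compared with edgeR 4.0.16 (quasi-likelihood test, all mice in the fit, sex as covariate), and a gene was called at a Benjamini-Hochberg adjusted p below 0.05 and a DEG also above 1.5-fold. DESeq2 1.42.0 and limma-voom (limma 3.58.1) were alternatives, with other scalings, filters, covariates and samples. Fits were checked on simulated data. CPM use TMM-scaled library sizes. Each library is a different mouse. All p-values adjusted over all genes come from edgeR unless another tool is named. Named genes were the 5 subunits, and from each list the genes called between homozygous and WT mice, or beyond 4 of them the 4 with the smallest p at a mean log2 CPM of at least 2, with Rac1, Nox1, Nox4 and Fos, and the 3 genes with the highest r per subunit at a mean log2 CPM of at least 4. Subunits and lists were chosen with earlier results of these data known. Ly6g and Dusp5 were not analysed here, and 1 gene of the naming rule is not reported here. Markers of other glia and vessels summed to 340.6 to 480.0 CPM over all mice.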

Additional observations from a re-analysis of the deposited data

Results flagged for a closer look

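In 15 sets of values (5 subunits in 3 genotypes), the highest and the lowest mouse were compared with the gap expected of a group of that size, a rule by which chance marks about 1 in 20 groups; 3 mice stood apart. Ncf1 in homozygous female 2 was 454.1 CPM against 570.8 CPM in the next lowest homozygous mouse. Ncf4 in WT female 1 was 142.4 CPM against 117.2 CPM in the next highest WT mouse. Rac2 in WT female 2 was 212.6 CPM against 190.3 CPM in the next highest WT mouse.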

How the results depend on the processing

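Across the alternatives run, Cybb stayed higher and Cyba lower in homozygous than in WT mice, while their calls and sizes changed; Ncf1, Ncf4 and Rac2 were called by none between these genotypes. The Cybb log2 fold change passed at 1.025 and 1.125 by DESeq2 with and without sex, 1.245 by limma-voom, 1.156 with library totals, 1.132 without a sex term and 1.148 with 2 genotypes alone. It was largest, and not called, with the neuron score as covariate (1.649, adjusted p = 0.436). Neuronal markers summed to 6.23 to 10.9 CPM in homozygous and 15.5 to 42.8 CPM in WT mice, so that fit can hardly tell score from genotype. With the neuron score the SE rose from 0.354 to 0.658 for Cybb and from 0.0558 to 0.101 for Cyba. Cyba no longer passed at -0.09 with library totals, -0.189 without a filter on low counts, -0.156 and -0.121 with an immediate-early or a neuron score as covariate, -0.197 and -0.182 for homozygous mice of the 03xx or 04xx range alone, and -0.169 for those with Fos below 100 CPM, a choice added after the data were seen. The number of subunits called between homozygous and WT mice, 1, became 2 by DESeq2 (both designs), limma-voom, no sex term and 2 genotypes alone, and 0 without a filter, with either score and for the mice of either range or of low Fos. The number that were DEGs, 0, became 1 (Cybb) in each setting that called Cybb. Against heterozygous mice 1 subunit was called by DESeq2 in either design and with library totals. It was Rac2 by DESeq2 with sex and with library totals, and Cyba by DESeq2 without sex (-0.131, DESeq2 adjusted p = 0.0449).

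Directions that were not called reversed for Ncf1 between homozygous and WT mice (-0.041, 03xx range), for Ncf4 (0.012 with library totals, 0.009 and 0.117 with the immediate-early and neuron score) and for Rac2 (0.083 with library totals, 0.023 with the immediate-early score, 0.048 in the 04xx range, 0.007 with low Fos). Against heterozygous mice they reversed for Ncf1 (-0.061, 03xx range) and Ncf4 (0.03 with library totals, 0.055 and 0.128 with the scores, 0.041 in the 04xx range, 0.019 with low Fos). The female Cybb to Cyba ratio, 2.216, missed the threshold because 7 mice allow no smaller p.

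Genes called between homozygous and WT mice numbered 877 and 6 with the immediate-early and neuron score, 806 in the 04xx range and 1062 with low Fos, against 1645, and DEGs 281 and 5 with the scores. Against heterozygous mice they numbered 1746, 47, 1433 and 1898, against 2936, and DEGs 473, 33, 542 and 505. DESeq2 called 3 genes with sex and 1 without between heterozygous and WT mice. The neuron score can hardly be told from genotype, and beyond that the cause of these changes was not tested.

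Leaving out each mouse gave 1060 (without WT male 1) to 1729 genes called between homozygous and WT mice, 0 to 2 subunits called and 0 to 1 as DEGs, with Cybb at 0.793 to 1.3, Cyba at -0.208 to -0.161 and Rac2 at -0.041 to 0.012. Against heterozygous mice it gave 0 to 1 subunits called, Ncf1 at -0.007 to 0.054 and Ncf4 at -0.071 to 0.002. Between heterozygous and WT mice it gave 0 to 1 genes called, Ncf1 at -0.008 to 0.048 and Ncf4 at -0.082 to 0.022. The ratio kept an unadjusted permutation p below 0.05 throughout. No paired analysis was possible because replicate numbers were given in accession order within each sex and tie no mice together. Depth limits Cybb, at 22 to 196 counts per mouse, and nothing can be tested for Nox1 or Nox4.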
